A study of Mus musculus with 9 samples.

Results

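The genes described here encode 8 members of the SLC16 family of monocarboxylate transporters (Slc16a1, Slc16a3, Slc16a6, Slc16a7, Slc16a9, Slc16a10, Slc16a11 and Slc16a13) and the glycoproteins basigin (Bsg) and embigin (Emb). They are 10 of 24445 genes in the count table, and 9 of the 10 had enough counts to test. Slc16a11 did not pass the filter on low counts. The set was chosen by the measured rise of Slc16a6 under the D-2-hydroxyglutarate ester (its counts in D2HG_LPS against Veh_LPS). Values of all 10 genes in that contrast are therefore a description and carry no test.

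RNA was sequenced from bone marrow-derived macrophages, differentiated in vitro from the marrow of wild-type C57Bl/6 mice. The Veh_N group had a 1 h vehicle step followed by 24 h in vehicle. In Veh_LPS the second step was 24 h of lipopolysaccharide (LPS), the outer-membrane glycolipid of Gram-negative bacteria. In D2HG_LPS the first step was instead 1 h with D2HG, given as the octyl ester of D-2-hydroxyglutarate, and LPS followed for 24 h. Each group had 3 libraries, and none of the groups analysed here had the ester without LPS. Doses and the age of the mice are not stated in the labels. The labels do not tie replicates to separate mice or dishes, and p-values reflect only the spread among libraries, which may be technical.

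Proteins of the SLC16 family move small acids and related solutes across membranes. Those of Slc16a1 (MCT1), Slc16a7 (MCT2) and Slc16a3 (MCT4) carry lactate, pyruvate and ketone bodies together with a proton, and MCT4 is known as the lactate exporter of strongly glycolytic cells. Basigin and embigin are membrane glycoproteins of the immunoglobulin superfamily that accompany these carriers to the cell surface. MCT1 and MCT4 pair mainly with basigin, and MCT2 mainly with embigin. Macrophages stimulated with LPS take up more glucose and release lactate, which makes the lactate carriers relevant to them.

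The windows before the annotated start of 3 genes are shown. Slc16a1 and Slc16a3 rose with LPS and Emb fell. RefSeq promoter sequences (build GRCm38.p6) matched 6 of the 10 genes. Each sequence holds the 250 bases before one annotated start, read 5′ to 3′ on the gene's strand. The window of Slc16a10, which also rose, and that of Slc16a9, which also fell, held none of the 3 motifs marked here. Neither did that of Slc16a11, which was not tested. These windows are not printed, and no link between a motif and direction is read from the printed ones. Slc16a1 lies at chr3:104638414-104638663 (+), Slc16a3 at chr11:120948817-120949066 (+) and Emb at chr13:117220323-117220572 (+). A set of 4 motifs was searched on both strands. Capitals mark matches to 3 of them, ACGTG (the core of a hypoxia response element), CACGTG (an E-box, which contains ACGTG) and TGANTCA (an AP-1 site). The fourth, the GC box GGGCGG, is left in lower case because it is common, in 32.7% of windows.
Slc16a1: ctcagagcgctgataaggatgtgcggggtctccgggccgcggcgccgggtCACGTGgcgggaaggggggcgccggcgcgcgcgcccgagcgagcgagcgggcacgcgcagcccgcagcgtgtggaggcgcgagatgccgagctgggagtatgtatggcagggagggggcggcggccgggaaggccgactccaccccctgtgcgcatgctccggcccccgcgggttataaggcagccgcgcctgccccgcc
Slc16a3: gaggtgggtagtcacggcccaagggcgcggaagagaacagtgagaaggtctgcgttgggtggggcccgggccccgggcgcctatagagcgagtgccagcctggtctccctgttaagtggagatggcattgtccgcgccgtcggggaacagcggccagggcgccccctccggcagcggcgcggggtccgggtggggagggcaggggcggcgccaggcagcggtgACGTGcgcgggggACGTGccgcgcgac
Emb: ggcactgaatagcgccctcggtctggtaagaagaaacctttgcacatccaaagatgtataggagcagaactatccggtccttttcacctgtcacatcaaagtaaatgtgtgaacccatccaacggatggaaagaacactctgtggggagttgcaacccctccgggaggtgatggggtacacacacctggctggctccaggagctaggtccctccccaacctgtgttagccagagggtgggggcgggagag
CACGTG occurred once in the Slc16a1 window, where both strands also hold ACGTG, and ACGTG occurred at 2 places in the Slc16a3 window. The Emb window held none of these 3 motifs. GGGCGG occurred once each in the Slc16a1, Slc16a3 and Emb windows and 3 times each in those of Slc16a10 and Slc16a9. It was thus present both for genes that rose and for genes that fell (Emb and Slc16a9). The Slc16a11 window held none. Of 32851 promoter windows of this length, 16.6% held ACGTG, 6.02% held CACGTG and 6.75% held TGANTCA. As background, Slc16a1 is a known target of Myc, an E-box factor, and Slc16a3 of hypoxia-inducible factor 1. The matches describe these letters only, and binding was not measured.

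Depth was 9451258 to 13759935 counts per library with 1 transcript row taken per gene, which limits the precision for Slc16a9 and Slc16a11. No pair of replicates was alike to within counting error (chi-square divided by its degrees of freedom, 2.78 to 23.7). All 8 macrophage markers checked passed the filter, and their summed level was 13236 to 15755 CPM in Veh_N, 11655 to 12241 in Veh_LPS and 11795 to 12404 in D2HG_LPS. CPM here means counts relative to library size after TMM scaling, the edgeR method that sets libraries on a common scale. Lyz2 made up the largest part of the macrophage sum, with means of 8547 CPM in Veh_N and 5336 in Veh_LPS. By the test described below, 4 of the 8 were higher with LPS, 3 lower and 1 not called. Of all genes 73.9% were called there. Summed neutrophil markers (5 of 7 tested) stood at 26.1 to 33.1 CPM in Veh_N, 68.3 to 82.3 in Veh_LPS and 60.0 to 76.7 in D2HG_LPS, and stromal and endothelial markers (3 of 7 tested) at 8.31 to 11.3, 134 to 154 and 75.3 to 85.8 CPM. The latter sum came mostly from Kdr, while Pdgfra had 0 counts in every library. The rise of the neutrophil sum came mostly from S100a8, S100a9 and Ngp. The low Mpo, Elane and Ly6g had lower means in Veh_LPS than in Veh_N. Summed dendritic cell markers (1 of 5 tested) stood at 1.60 to 1.88 CPM in Veh_N, 5.83 to 6.91 in Veh_LPS and 6.92 to 8.78 in D2HG_LPS. Xcr1 gave the rise with LPS, with means of 0.302 CPM in Veh_N and 5.40 in Veh_LPS. Flt3, Itgae and Siglech had lower means in Veh_LPS than in Veh_N. Lymphoid markers (6 of 7 in the table, 0 tested) were at most 1.88 CPM in sum in any library. Erythroid markers (1 of 5 tested) were at most 1.41 CPM in sum in any library. The part of these other cell types in the results below was not tested. In bulk RNA, fewer cells of a type and less RNA per cell cannot be told apart.

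Levels of different genes were ranked per kilobase of transcript, using GENCODE vM21 lengths. The ratios of counts between genes given further below are not corrected for length. Those ratios are for comparing groups and do not rank the genes by level. Neighbours in the order are called close where their means differed by less than the sum of their SDs. In Veh_N the highest was Bsg, at 177 ± 19.4 CPM per kb (mean ± SD, n = 3), followed by Emb at 90.8 ± 11.3. Slc16a3 stood at 25.5 ± 3.28, Slc16a6 at 18.1 ± 0.532, Slc16a10 at 14.6 ± 0.722 and Slc16a7 at 12.7 ± 2.94 CPM per kb. Slc16a13 (5.08 ± 0.487) and Slc16a1 (2.53 ± 0.482) came next, and Slc16a9 (0.360 ± 0.106) and Slc16a11 (0.106 ± 0.0698) were lowest. Slc16a10 and Slc16a7 were close. Longer listed transcripts with almost the same count give 10.1 CPM per kb for Slc16a6 and 13.3 for Slc16a3. The order of Slc16a3, Slc16a6, Slc16a10 and Slc16a7 in Veh_N therefore depends on the length taken. In Veh_LPS the order was Bsg (221 ± 30.6), Emb (55.2 ± 8.33), Slc16a3 (46.8 ± 2.87), Slc16a10 (27.7 ± 1.75), Slc16a1 (9.32 ± 0.619), Slc16a7 (4.08 ± 0.983), Slc16a6 (3.47 ± 0.559) and Slc16a13 (2.10 ± 0.594). Emb and Slc16a3 were close in that group, and so were Slc16a7 and Slc16a6. On the longer transcripts Slc16a3 stood at 24.5 ± 1.49 and Slc16a6 at 1.95 ± 0.312 CPM per kb, and neither pair was close. Slc16a3 then came below Slc16a10 and Slc16a6 below Slc16a13, and both of these pairs were close. The order in Veh_LPS therefore also depends on the length taken. In D2HG_LPS, Slc16a6 stood at 27.9 ± 3.17 CPM per kb, close to Slc16a10 (27.1 ± 0.896) and below Slc16a3 (49.3 ± 2.42) and Emb (47.4 ± 1.86). Slc16a3 and Emb were close to each other in that group. On the longer transcripts Slc16a6 stood at 15.5 CPM per kb, which is not close to Slc16a10. Slc16a3 then stood at 25.8 ± 1.27, below Slc16a10 but close to it, and no longer close to Emb.

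Veh_LPS was first set against Veh_N, which asks how LPS alone moved these genes. Leaving aside Slc16a6, whose Veh_LPS values entered the choice of genes, 4 of the other 8 tested genes were higher (Slc16a1, Slc16a3, Slc16a10 and Bsg) and 4 lower (Slc16a7, Slc16a9, Slc16a13 and Emb) by edgeR's quasi-likelihood test at an adjusted p below 0.05. Over all 11622 genes tested, 73.9% passed the same threshold, 35% higher and 38.9% lower. The median log2 fold change was -0.20 over the 8 genes and -0.07 over all genes. These directions are relative to TMM scaling, under which 47.4% of all calls were higher, against 33.2% with upper-quartile scaling and 21.8% with library totals alone. With library totals alone every LPS fold change moved down (median shift of all genes -0.67) and Bsg turned to -0.34, while the other tested genes kept their sign.

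**Figure D1:**
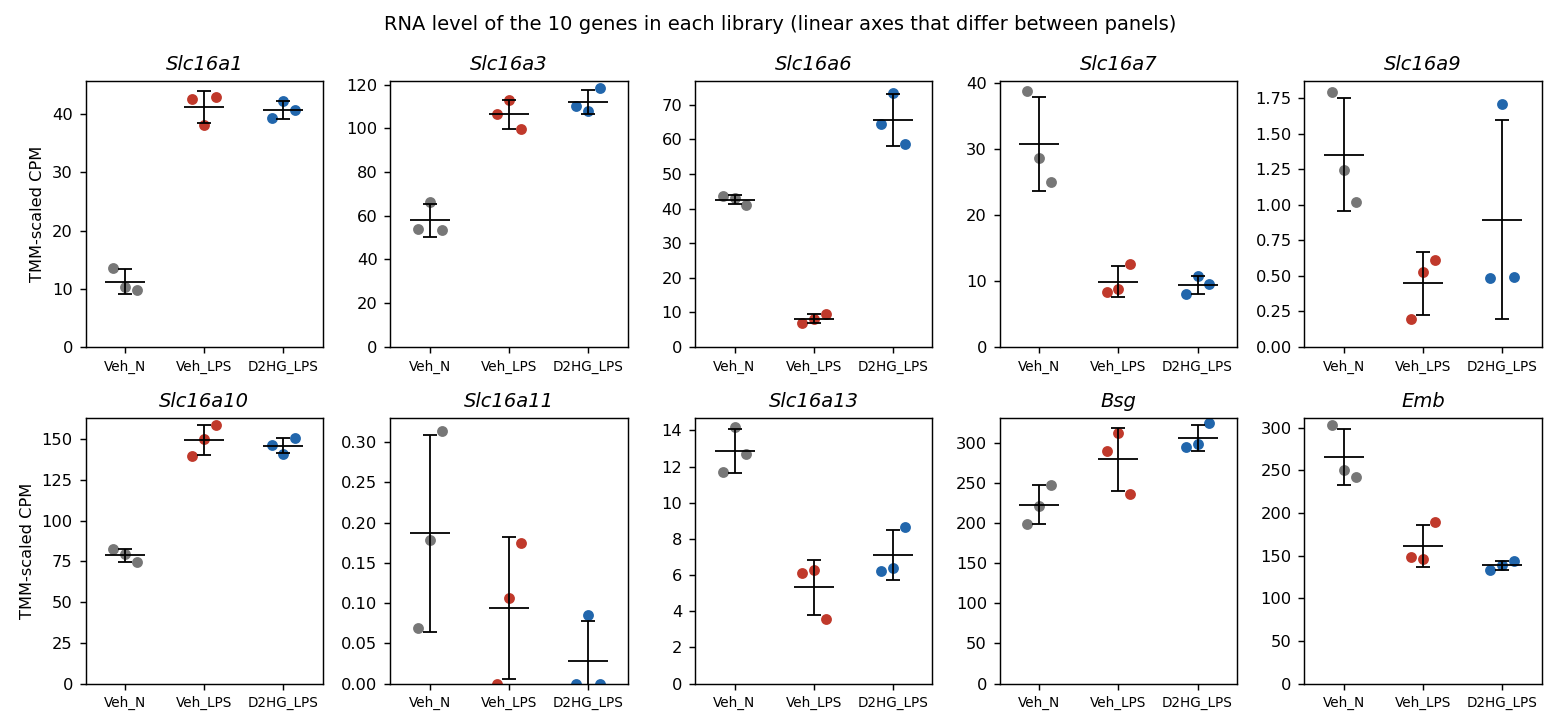
TMM-scaled CPM of each gene in each library (points), with group means and SD (black bars), n = 3 per group, on linear axes from 0 that differ between panels. Slc16a6 is low only in the Veh_LPS libraries, at 6.91 to 9.54 CPM, while Slc16a1, Slc16a3 and Slc16a10 are near their Veh_LPS level in D2HG_LPS.

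Among the proton-linked carriers, Slc16a1 rose most. Its level was 13.7, 10.3 and 9.72 CPM in the Veh_N libraries and 42.6, 38.1 and 43.1 CPM in Veh_LPS. Every Veh_LPS library lay above every Veh_N library. The log2 fold change was 1.88 ± 0.13 (SE), a 3.68-fold rise (edgeR, Benjamini-Hochberg adjusted p = 2.20e-08).

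Slc16a3, the gene of the lactate exporter MCT4, also rose. It stood at 53.7, 66.5 and 53.4 CPM in Veh_N and 106, 113 and 99.9 CPM in Veh_LPS. The groups did not overlap, and the log2 fold change was 0.88 ± 0.10 (edgeR, adjusted p = 3.72e-06). With library totals alone it was 0.21 ± 0.10 and no longer called (edgeR, adjusted p = 0.0657). Slc16a3 overlaps the casein kinase gene Csnk1d in the RefSeq table, where Csnk1d was at 0.69 ± 0.07 (0.025 with library totals alone). Whether counting used strand is not stated in the labels, so reads of the overlap cannot be assigned to one of them.

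Slc16a7, the gene of MCT2, moved the opposite way. It stood at 38.7, 28.5 and 25.0 CPM in Veh_N and at 8.30, 8.70 and 12.6 CPM in Veh_LPS, with no overlap. The log2 fold change was -1.63 ± 0.20 (edgeR, adjusted p = 6.77e-06). Within each library, where no scaling enters, the count of Slc16a1 was 0.353, 0.360 and 0.389 times that of Slc16a7 in Veh_N and 5.13, 4.38 and 3.42 times in Veh_LPS. More reads came from Slc16a7 than from Slc16a1 in the Veh_N libraries and fewer in the Veh_LPS libraries. The ratios of counts within libraries given here were chosen after the values were seen and are descriptions.

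The glycoprotein genes also moved apart. Emb fell from 303, 251 and 243 CPM in Veh_N to 148, 147 and 189 CPM in Veh_LPS, a log2 fold change of -0.72 ± 0.11 (edgeR, adjusted p = 7.78e-05). All 3 Veh_LPS libraries lay below all 3 Veh_N libraries. Bsg stood at 199, 221 and 248 CPM in Veh_N and 289, 312 and 236 CPM in Veh_LPS, with a log2 fold change of 0.33 ± 0.11 (edgeR, adjusted p = 0.0162). Veh_LPS replicate 3 lay inside the range of the Veh_N libraries. The call of Bsg rested on the scaling: it was 0.00 ± 0.12 with upper-quartile scaling (edgeR, adjusted p = 0.98) and -0.34 ± 0.11 with library totals alone (adjusted p = 0.013). It was also lost without Veh_LPS replicate 2 (0.25, edgeR adjusted p = 0.0705). The count of Bsg over that of Emb, which does not depend on the scaling, was 0.657, 0.882 and 1.02 in Veh_N and 1.95, 2.13 and 1.25 in Veh_LPS. The ratio was higher in each Veh_LPS library than in any Veh_N library.

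**Figure D2:**
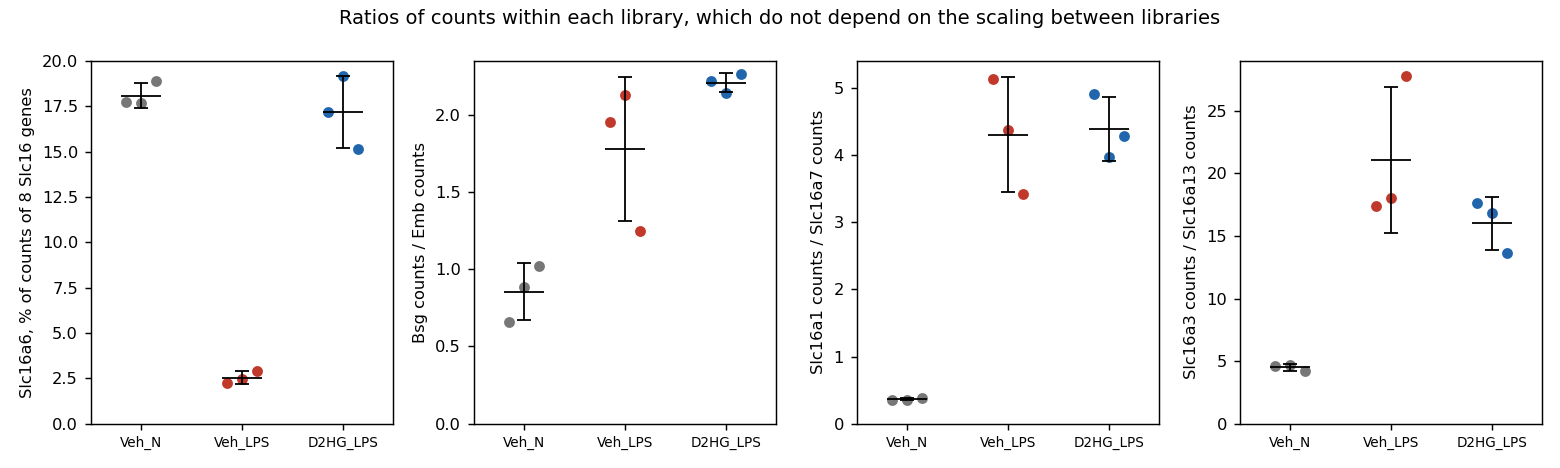
Ratios of counts within single libraries (points) with group means and SD (black bars), n = 3 per group, on linear axes from 0. The share of Slc16a6 among the 8 Slc16 genes drops to 2.54% in Veh_LPS, and the 3 ratios between genes are higher in both LPS-treated groups than in Veh_N.

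Slc16a10 encodes TAT1, which carries the aromatic amino acids without a proton. It rose from 82.3, 79.4 and 74.6 CPM to 140, 150 and 159 CPM, with no overlap, a log2 fold change of 0.92 ± 0.08 (edgeR, adjusted p = 2.32e-07). The log2 fold change was 0.25 with library totals alone. Its other listed transcript held 17.9% of the counts of the row used.

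Slc16a13, a less studied member for which lactate transport has been described, fell from 11.7, 14.2 and 12.7 CPM to 6.12, 6.26 and 3.59 CPM. The lowest value was that of Veh_LPS replicate 3, and the groups did not overlap. The log2 fold change was -1.29 ± 0.20 (edgeR, adjusted p = 8.20e-05). The count of Slc16a3 was 4.21 to 4.69 times that of Slc16a13 in the Veh_N libraries and 17.4 to 27.8 times in Veh_LPS.

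Slc16a9, whose protein has been linked to carnitine efflux, had few reads, with 26, 21 and 13 counts in the Veh_N libraries and 2, 5 and 7 in Veh_LPS. Its log2 fold change was -1.57 ± 0.55 (edgeR, adjusted p = 0.0201). The call was lost without Veh_LPS replicate 1 (-1.22, edgeR adjusted p = 0.0866) or without Veh_N replicate 1 (-1.32, adjusted p = 0.056). Slc16a11, a gene tied to lipid metabolism and to the risk of type 2 diabetes in human genetics, had 1, 3 and 4 counts in Veh_N and 0, 1 and 2 in Veh_LPS. The ratio of its summed counts was 0.534, with a 95% exact binomial interval of 0.0913 to 2.23 that covers counting error only, so a difference was not detectable at this depth.

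Slc16a6 encodes MCT7, a member whose fish counterpart exports the ketone body beta-hydroxybutyrate from the liver. It stood at 43.5, 43.0 and 41.1 CPM in Veh_N and 6.91, 8.06 and 9.54 CPM in Veh_LPS. The Veh_N libraries were close together and lay above all Veh_LPS libraries. The log2 fold change was -2.37 ± 0.13, the largest of the 9 genes in size, a level 0.193 times that of Veh_N. Since the Veh_LPS libraries also entered the comparison that chose the gene, this value too is given as a description. The fold change ranged from -3.04 with library totals alone to -2.26 without Veh_LPS replicate 1.

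Setting D2HG_LPS against Veh_LPS asks what the ester changes in cells given LPS. Slc16a6 stood at 64.5, 73.5 and 58.7 CPM in D2HG_LPS, against 6.91, 8.06 and 9.54 CPM in Veh_LPS. The lowest D2HG_LPS library was far above the highest Veh_LPS library. The log2 fold change was 2.998 ± 0.13, which is 7.99-fold. It ranked 1 of the 8106 genes whose mean log2 CPM reached 3, and 8 of all 11622 tested. Of the 9 tested genes Slc16a6 alone was past the adjusted p of 0.05, as 2.11% of all genes were (1.15% higher and 0.955% lower). The choice of genes rested on the rise of Slc16a6, so its pass is no test result. That choice did not fix that the other tested genes were not called, but their values here are descriptions too. Of the calls over all genes 54.7% were higher, against 40.8% with RLE scaling and 74.4% with library totals alone.

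**Figure D3:**
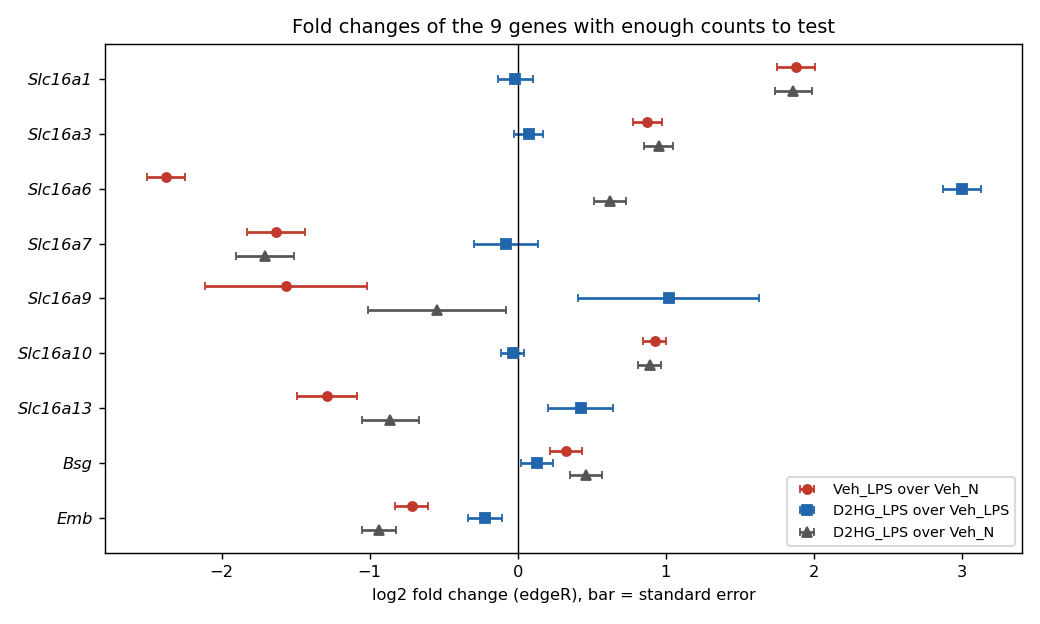
Log2 fold changes (points) with standard errors (bars) of the 9 tested genes in the 3 comparisons, from 1 edgeR fit over 9 libraries. Slc16a6 has -2.37 for LPS and 2.998 for the ester under LPS, whereas the ester values of Slc16a1, Slc16a3, Slc16a7 and Slc16a10 lie between -0.08 and 0.07.

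The proton-linked carrier genes Slc16a1, Slc16a3 and Slc16a7 stayed near their Veh_LPS level. Slc16a1 stood at 39.3, 42.3 and 40.7 CPM in D2HG_LPS, within the range of the Veh_LPS libraries (-0.02 ± 0.12). Slc16a3 stood at 110, 108 and 118 CPM and overlapped with Veh_LPS (0.07 ± 0.10). Slc16a7 stood at 7.998, 10.7 and 9.47 CPM (-0.08 ± 0.21) and the amino acid carrier Slc16a10 at 146, 141 and 151 CPM (-0.03 ± 0.08), both overlapping. The signs of Slc16a1, Slc16a7 and Slc16a10 turned under other settings, Slc16a1 and Slc16a10 with library totals alone (0.046 and 0.030) and Slc16a7 without Veh_LPS replicate 3 (0.15).

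Bsg stood at 294, 299 and 325 CPM in D2HG_LPS (0.13 ± 0.11), and overlapped with Veh_LPS. Emb stood at 133, 139 and 143 CPM, below the 147 CPM of the lowest Veh_LPS library, but by a small amount (-0.22 ± 0.11). The Bsg to Emb count ratio was 2.22, 2.14 and 2.26 in D2HG_LPS, each above the highest Veh_LPS value of 2.13. Without Veh_LPS replicate 3 the log2 fold change of Emb was -0.09 and that of Bsg 0.03.

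Slc16a13 stood at 6.24, 6.40 and 8.68 CPM in D2HG_LPS (0.43 ± 0.22) and overlapped with Veh_LPS. Slc16a9 had 5, 20 and 5 counts (1.02 ± 0.61). Replicate 2 alone was high, and without it the log2 fold change of Slc16a9 was 0.11. Slc16a11 had 0, 1 and 0 counts in D2HG_LPS, and the ratio of its summed counts to those of Veh_LPS was 0.322 with a 95% exact binomial interval of 0.00613 to 4.01.

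Against unstimulated cells, the comparison of D2HG_LPS with Veh_N shares its libraries with both comparisons above. Leaving aside Slc16a6, whose D2HG_LPS values entered the choice of genes, 4 of the other 8 tested genes were higher and 3 lower, against 72.6% of all genes called (35.4% higher and 37.2% lower). Of all calls 48.8% were higher, against 34.4% with upper-quartile scaling and 23.0% with library totals alone. Slc16a1 (1.86 ± 0.13), Slc16a3 (0.95 ± 0.10) and Slc16a10 (0.89 ± 0.08) were higher and Slc16a7 (-1.71 ± 0.20), Slc16a13 (-0.86 ± 0.19) and Emb (-0.94 ± 0.11) lower. Bsg was at 0.46 ± 0.11, but its call was lost with upper-quartile scaling (0.16, edgeR adjusted p = 0.238), and it turned to -0.15 with library totals alone. Slc16a9 was not called (-0.55 ± 0.47), but it was called lower without D2HG_LPS replicate 2 (-1.45, edgeR adjusted p = 0.0198) or with library totals alone (-1.15, adjusted p = 0.0353).

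Slc16a6 was above its Veh_N level, by 0.62 ± 0.11 with TMM scaling, given here as a description. All 3 D2HG_LPS libraries (58.7 to 73.5 CPM) lay above all 3 Veh_N libraries (41.1 to 43.5 CPM). With library totals alone the log2 fold change was 0.018, so whether Slc16a6 passed its unstimulated level rests on the scaling. Slc16a6 made up 18.1% ± 0.675 (SD, n = 3) of the summed counts of the 8 Slc16 genes in Veh_N, 2.54% ± 0.343 in Veh_LPS and 17.2% ± 2.00 in D2HG_LPS. This share needs no scaling between libraries. Its count over that of Slc16a10 was 0.541 ± 0.0117 in Veh_N, 0.0544 ± 0.00536 in Veh_LPS and 0.450 ± 0.0663 in D2HG_LPS.

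**Figure D4:**
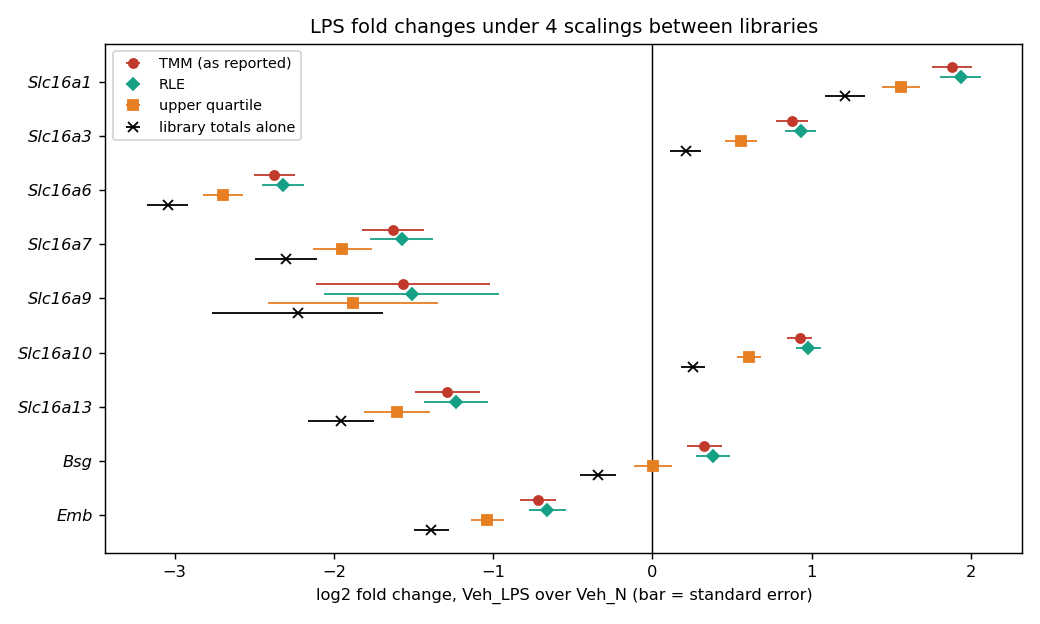
Log2 fold changes of Veh_LPS over Veh_N (points) with standard errors (bars) of the 9 tested genes under 4 ways of scaling the libraries. Bsg crosses 0 (0.33 with TMM and -0.34 with library totals alone), and the other 8 genes keep their side.

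Of the genes that overlap Slc16a6 in the RefSeq table, the noncoding gene Gm45916 showed almost the same values. It stood at 18.1 ± 0.490 CPM in Veh_N, 3.54 ± 0.950 in Veh_LPS and 27.9 ± 3.49 in D2HG_LPS (mean ± SD, n = 3). Its count was 0.386 to 0.477 times that of Slc16a6 in every library. The 2 rows can hold the same reads, and they are not separate evidence. Arsg, a sulfatase gene that overlaps Slc16a6 and lies on the opposite strand in GENCODE, went from 4.70 ± 0.761 to 1.49 ± 0.183 CPM with LPS (-1.66 ± 0.24) and was at 2.77 ± 0.648 CPM in D2HG_LPS (0.90, not called). The nearest other gene in the count table, Amz2, a metalloprotease gene, was at 26.7 ± 1.13, 20.2 ± 1.63 and 23.5 ± 0.669 CPM.

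The genes most like Slc16a6 were ranked by Pearson's r of log2 CPM over the 9 libraries, among 8105 other genes above the same level. The correlation is a description over libraries that share 3 groups. Gm45916 was first (r = 0.998), followed by Nek6 (0.963), a mitotic kinase, Plekhb2 (0.961), an endosomal protein, Tmbim1 (0.952), a membrane protein of lysosomes, and B3gnt3 (0.949), a glycosyltransferase. Nek6 and Tmbim1 moved by -1.12 and -1.24 with LPS and by 1.10 and 1.18 with the ester under LPS. Plekhb2 was at -0.13 and 0.15, and neither value was called with TMM, but its LPS value was -0.80 and called with library totals alone (edgeR, adjusted p = 1.05e-07). B3gnt3 was at -0.34 and 0.44, and its LPS value was -1.01 with library totals alone.

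**Figure D5:**
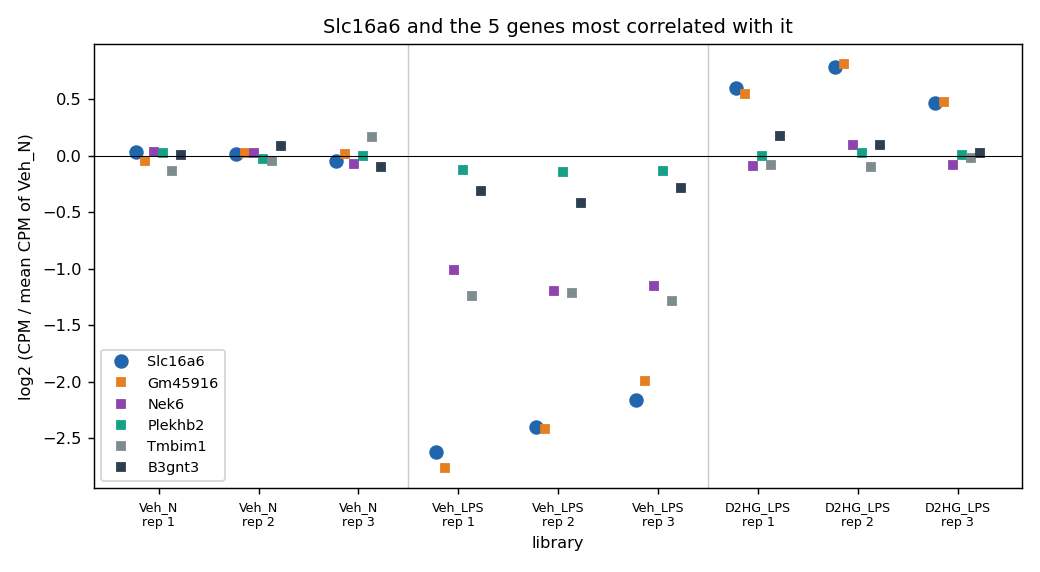
Log2 of CPM over the mean CPM of Veh_N in each of the 9 libraries for Slc16a6 (large circles) and the 5 genes with the highest correlation to it (squares). Gm45916 lies on Slc16a6 in most libraries, Nek6 and Tmbim1 drop by a smaller amount in Veh_LPS, and Plekhb2 hardly moves.

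Of other SLC16 genes, Slc16a4, Slc16a5, Slc16a8, Slc16a12 and Slc16a14 were too low to test. Slc16a8 had 0 counts in every library. Slc16a5 had 21 counts in the Veh_N libraries together, 0 in Veh_LPS and 1 in D2HG_LPS, and Slc16a4, Slc16a12 and Slc16a14 had 9 to 15 counts in all.

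Lists of genes that make or use the cargo of these carriers were read against the same share of all genes called for LPS, 73.9% (35% higher and 38.9% lower), and nothing particular to a list is read from its count. Of 16 tested genes of lactate and pyruvate handling, 8 rose, 4 fell and 4 were not called, with a median log2 fold change of 0.38 (-0.07 over all genes). Ldha, the lactate dehydrogenase subunit of glycolytic cells, rose by 1.21 ± 0.08 and the pyruvate kinase gene Pkm by 1.03 ± 0.08. Of the kinases that restrain pyruvate dehydrogenase, Pdk3 rose by 2.24 ± 0.11 and Pdk2 was at -3.77 ± 0.21. Upper-quartile scaling gave 4 higher and 6 lower, and library totals alone 4 higher and 7 lower. The mitochondrial pyruvate carrier genes Mpc1 and Mpc2 and the pyruvate dehydrogenase subunits Pdha1, Pdhb, Dlat and Pdhx changed sign with library totals alone. The calls of Ldhb (-0.96) and Pcx (0.70) were lost without single libraries, Ldhb without Veh_LPS replicate 1 or 3 or Veh_N replicate 2, and Pcx without Veh_LPS replicate 1 or 2 or Veh_N replicate 1 or 3 (edgeR, adjusted p from 0.0659 to 0.184). None of the 16 was called for the ester under LPS.

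Of 6 tested ketone body genes, 2 rose, 2 fell and 2 were not called for LPS, against 73.9% of all genes called, and the median was -0.17. Upper-quartile scaling gave 1 higher and 4 lower, and library totals alone 1 higher and 5 lower. Hcar2, the receptor for beta-hydroxybutyrate and nicotinic acid, rose by 6.33 ± 0.19. The ketone-oxidising Oxct1 was at 0.29 ± 0.07 but at -0.38 with library totals alone. Bdh1, which interconverts the ketone bodies, was at -1.19 ± 0.38, a call lost without Veh_LPS replicate 3 (edgeR, adjusted p = 0.0588) or Veh_N replicate 2 (adjusted p = 0.0653). For the ester under LPS none of the 6 was called with TMM, and 2 were called lower with RLE scaling.

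Of 6 tested genes of acid and bicarbonate transport, 4 rose, 1 fell and 1 was not called for LPS, against 35% of all genes higher and 38.9% lower, and the median was 0.72. The bicarbonate carrier gene Slc4a7 rose by 2.32 ± 0.17 and the carbonic anhydrase gene Car2 by 3.33 ± 0.49. Car2 had only 9 counts in the Veh_N libraries together, so the size of its rise is imprecise. Slc4a2 was at 0.21 ± 0.08, but at -0.46 with library totals alone, and its call was lost without Veh_N replicate 2 (edgeR, adjusted p = 0.0558). The carbonic anhydrase gene Car14 was at -0.55, a call lost without Veh_LPS replicate 2 or 3 or Veh_N replicate 1 (edgeR, adjusted p from 0.0608 to 0.163). Upper-quartile scaling gave 3 higher and 1 lower, and library totals alone 3 higher and 3 lower. None of the 6 was called for the ester under LPS.

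Of 8 tested genes of carriers that share substrates with SLC16 proteins, 4 rose and 4 fell with LPS, against 35% of all genes higher and 38.9% lower, and the median was 0.02. The amino acid carrier genes Slc7a5 (2.29 ± 0.13) and Slc7a8 (2.11 ± 0.07) rose. Slc43a2, another carrier of large neutral amino acids, fell from 747 to 56.3 CPM (-3.73 ± 0.08), and Slco2b1, an organic anion carrier, was at -4.86 ± 0.37. Slco2b1 had only 13 counts in the Veh_LPS libraries together, so the size of its fall is imprecise. The taurine carrier gene Slc6a6 was at 0.40 but at -0.27 with library totals alone, where 2 of the 8 rose and 5 fell. Upper-quartile scaling gave 3 higher and 4 lower.

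All 5 tested relatives and partners of basigin rose with LPS under TMM scaling, with a median of 0.63, where 35% of all genes were higher. Upper-quartile scaling left 2 of the 5 higher and 0 lower. The hyaluronan receptor gene Cd44 rose by 1.61 ± 0.12 and Slc3a2, the heavy chain of amino acid carriers, by 0.84 ± 0.08. Nptn, a close relative of basigin, was at 0.38 ± 0.10 and the cyclophilin gene Ppib at 0.38 ± 0.10, but both were at -0.29 with library totals alone, where 1 of the 5 rose and 2 fell. Ppia, the other cyclophilin gene of the list, was at 0.63 but at -0.039 with library totals alone, and its call was lost without Veh_LPS replicate 2 (edgeR, adjusted p = 0.14) or Veh_N replicate 1 (adjusted p = 0.0591). None of the genes of either list was called for the ester under LPS.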

How the data were processed

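RNA-seq counts of 9 libraries (3 groups of 3) were used. Raw counts for 35745 RefSeq transcripts were deposited by the authors in 1 table. STAR 2.5.2b, DESeq2 and the builds mm10 and mm9 are named per the submitters' processing notes, with no roles. Libraries were strand-specific per the labels' protocols, but neither the counting program nor its use of strand is stated in them. Transcripts were matched to symbols through the RefSeq table of GRCm38.p6 (35435 rows) and GENCODE vM21 (193 rows). The 117 unmatched rows held 0.676% to 2.37% of counts and stayed out of library sizes. Listed isoforms mostly shared their counts (median ratio 0.992), so the row with the highest total was taken per gene.

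Counts of 11622 genes kept by filterByExpr were fitted with edgeR 4.0.16 in R 4.3.3 (TMM, glmQLFit with robust=TRUE, group as the only term) and tested two-sided with glmQLFTest, with Benjamini-Hochberg adjustment over all tested genes and calls at an adjusted p below 0.05. Standard errors were taken as the log2 fold change divided by the root of F. Gene lists were named by up to 4 members of smallest p in Veh_LPS over Veh_N, and other list genes were named after their values were seen, because a scaling or 1 library changed them. Genes overlapping or next to Slc16a6 and Slc16a3 and the 5 genes most correlated with Slc16a6 were also named. Alternatives were summed isoforms, other scalings, no filter, DESeq2 1.42.0, 2-group fits, a replicate block and leaving out each library. Some genes of the lists are not reported here. The members, lists and rules were chosen with earlier results of these data known.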

Additional observations from a re-analysis of the deposited data

How the results depend on the processing

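TMM factors were 0.831 to 0.887 in the LPS-treated libraries and 1.34 to 1.35 in Veh_N, so the scaling matters most for small LPS changes. With library totals alone, 2112 genes were higher and 7589 lower for Veh_LPS over Veh_N (4071 and 4516 with TMM) and 2178 and 7283 for D2HG_LPS over Veh_N (4114 and 4321). Of the genes described, Slc16a6 included, 2 were then higher for Veh_LPS over Veh_N in place of 4, and 3 for D2HG_LPS over Veh_N in place of 5, and Bsg was at -0.34 and -0.15 in these comparisons. The split of calls was 47.4% higher for Veh_LPS over Veh_N with TMM, 33.2% with upper-quartile scaling and 21.8% with library totals alone. For D2HG_LPS over Veh_N it was 48.8%, 34.4% and 23.0%.

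For D2HG_LPS over Veh_LPS, 134 genes were higher and 111 lower (54.7% higher). Library totals alone gave 212 and 73 (74.4% higher), RLE scaling 40.8% higher, DESeq2 331 lower (34.6% higher), the fit of 2 groups 253 lower (43.8% higher), and the replicate block 53 and 40. Leaving out 1 library gave 35 to 230 higher and 29 to 271 lower, lowest without D2HG_LPS replicate 1 and highest without Veh_N replicate 1. The higher count moved by over 1.5 times without any library but Veh_N replicate 3, and the lower count without any but Veh_LPS replicate 2. Slc16a6 ranged from 2.89 to 3.13. Slc16a1 was at 0.0078 with upper-quartile scaling, 0.046 with library totals alone and -0.070 to 0.016 with 1 library left out, turning positive without D2HG_LPS replicate 1 or Veh_LPS replicate 1 or 3. Slc16a7 was at -0.19 to 0.15 with 1 library left out, positive without D2HG_LPS replicate 1 or Veh_LPS replicate 3. Slc16a10 was at 0.030 with library totals alone and -0.079 to 0.013 with 1 library left out, positive without Veh_LPS replicate 3. Same-numbered libraries did not deviate together (r of -0.43 to 0.176 over 9 pairs, 1 above 0.1). The labels do not say what the numbers share, so same-numbered libraries were not taken as pairs. Libraries with different numbers had r of -0.36 to 0.50, highest for Veh_LPS replicate 3 with Veh_N replicate 1. Those libraries also had the largest shares of unmatched counts (2.28% and 2.37%). What they have in common was not tested. The block changed no call of the 9 tested genes. The cause of these shifts was not tested. The depth limits Slc16a11, which had 12 counts in all.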
